A study of Rattus norvegicus with 16 samples.

Results

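The genes described here encode the proteins of tight junctions, gap junctions and desmosomes. They were chosen by name, not by level, although earlier results of these data were known. They are claudins (Cldn), zonula occludens proteins (Tjp), tricellulin and its relatives (Marveld), junctional adhesion molecules (Jam2, Jam3, F11r), connexins (Gj), desmogleins (Dsg), desmocollins (Dsc), plakophilins (Pkp), and Ocln, Cgn, Dsp and Jup. Of 73 such genes in the rat RefSeq table, 56 had a matched probe on the array, out of 15159 genes named in all. The 56 comprise 25 claudins, 6 other tight junction membrane proteins, 3 tight junction plaque proteins, 15 connexins, 4 desmosomal cadherins and 3 desmosomal plaque proteins. For a gene with several probes, the probe with the highest mean signal over the 16 arrays was taken. The other 17 genes, among them Cgn, Dsp and Dsg2, were not analysed here.

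RNA came from normal distal colon of 16 male (ACIxF344)F1 rats at 97 days of age, each hybridised to its own 1-colour Agilent microarray. There were 4 rats in each of 4 groups: untreated Apc wild type rats, Apc wild type rats given dextran sodium sulfate (DSS), untreated Pirc/+ rats and DSS-treated Pirc/+ rats. The Pirc allele is a truncating mutation of the tumor suppressor gene Apc, and carriers develop colonic tumors. DSS, which injures and inflames the colonic epithelium, was supplied at 4% in drinking water in 2 courses, days 40 to 47 and days 54 to 61, so the tissue was taken 36 days after the last DSS. The strain label of the wildtype rats also carries the name Pirc, and only their genotype label reads wild type. The methods describe scraping of the colonic lumen to obtain normal epithelium of untreated animals, but the labels of these 16 rats say only normal distal colon.

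Tight junctions seal the space between epithelial cells. Claudins span the membrane and set which ions pass, occludin and tricellulin stabilise the strands, and zonula occludens proteins tie the strands to actin. Gap junctions are channels built of connexins that let small molecules move from cell to cell. Desmosomes are spot welds in which desmogleins and desmocollins bind neighbouring cells and plakoglobin and plakophilins link them to keratin filaments. In the healthy colon the lining is a single columnar layer, whereas desmosomes and a different set of connexins dominate in stratified epithelia such as skin.

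The promoters of 5 genes that carry the results are shown, since 4 of them were enhanced together after DSS (Gjb6, Gjb2, Gja1 and Cldn1) and 1 was diminished in Pirc rats (Ocln). The sequences are those of RefSeq on GRCr8, read 5′ to 3′ from 250 bases before to 50 bases after a listed start site. Capitals mark matches on either strand to TGANTCA, the AP-1 motif, to GGGCGG, the GC box, and to TATAAA, the TATA box. Gjb6 lies on the minus strand at chr15:35410089-35410388 and Gjb2 on the minus strand at chr15:35381904-35382203, and no other gene of the table lies between these neighbours. Gja1 lies on the plus strand at chr20:36302314-36302613, Cldn1 on the plus strand at chr11:87926126-87926425 and Ocln on the minus strand at chr2:33441149-33441448.
Gjb6: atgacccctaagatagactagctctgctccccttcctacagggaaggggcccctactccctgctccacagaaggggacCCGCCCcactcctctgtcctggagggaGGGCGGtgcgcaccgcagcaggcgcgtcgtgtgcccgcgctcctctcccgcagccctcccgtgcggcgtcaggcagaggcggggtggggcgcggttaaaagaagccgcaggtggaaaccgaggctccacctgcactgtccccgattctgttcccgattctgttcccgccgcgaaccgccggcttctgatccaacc
Gjb2: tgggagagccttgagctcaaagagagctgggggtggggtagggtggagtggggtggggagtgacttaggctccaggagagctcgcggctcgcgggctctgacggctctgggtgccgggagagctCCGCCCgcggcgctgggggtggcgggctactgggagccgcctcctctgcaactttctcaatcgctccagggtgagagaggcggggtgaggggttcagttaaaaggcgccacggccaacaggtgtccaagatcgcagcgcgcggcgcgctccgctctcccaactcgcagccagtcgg
Gja1: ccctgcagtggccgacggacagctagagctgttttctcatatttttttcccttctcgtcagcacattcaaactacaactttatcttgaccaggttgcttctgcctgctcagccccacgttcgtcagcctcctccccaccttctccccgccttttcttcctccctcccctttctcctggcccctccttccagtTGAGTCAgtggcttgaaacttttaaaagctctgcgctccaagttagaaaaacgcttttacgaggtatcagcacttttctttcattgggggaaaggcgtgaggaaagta
Cldn1: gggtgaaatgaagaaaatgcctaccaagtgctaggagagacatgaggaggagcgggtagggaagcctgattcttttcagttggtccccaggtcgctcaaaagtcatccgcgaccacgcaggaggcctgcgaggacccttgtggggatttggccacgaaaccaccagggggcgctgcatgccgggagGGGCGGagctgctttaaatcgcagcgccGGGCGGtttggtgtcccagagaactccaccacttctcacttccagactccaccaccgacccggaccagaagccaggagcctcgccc
Ocln: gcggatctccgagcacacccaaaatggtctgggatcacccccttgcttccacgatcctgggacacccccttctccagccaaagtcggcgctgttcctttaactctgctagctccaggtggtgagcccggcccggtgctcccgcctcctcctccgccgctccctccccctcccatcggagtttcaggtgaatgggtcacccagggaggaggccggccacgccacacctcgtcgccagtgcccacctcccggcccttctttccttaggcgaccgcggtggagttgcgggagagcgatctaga
The AP-1 motif occurred once, in the Gja1 promoter, starting 58 bases before the start site, and 7.33% of all 27457 promoters of this length held it. GC boxes occurred in the promoters of Gjb6 (2 matches), Gjb2 (1) and Cldn1 (2), and in 34.9% of all promoters. None of the 5 held TATAAA, which was found in 14.3% of all promoters. Of the 56 genes, 40 had a promoter in the table, and 22 of these held a GC box, 4 the AP-1 motif and 3 the TATA box. A match describes the letters only.

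Levels are given as log2 of the array's processed signal minus log2 of its 75th percentile. A level of 0 thus equals the 75th percentile of that array, and levels of different junction gene probes were not compared. Only marker levels were summed over the probes of a list, on the linear scale. The brightest probes weigh most in such a sum. A probe counts as above background where at least 0.5 of its spots carry the scanner's flag for a signal well above background. Of the 56 genes, 32 were above background on all 16 arrays, 18 on some, and 6 on none (Cldn16, Cldn24, Cldn34a, Gja6, Gjc1 and Gjd2). The 75th percentile of the signal ranged from 875.4 to 2194 over the arrays. By correlation over all 30367 probes, 14 of 16 arrays lay nearest to an array of their own group. The exceptions were DSS-treated wildtype rat 26 and untreated Pirc rat 23, both nearest to untreated wildtype rat 25, and results that turn on them are also given without them. Rat 26 was singled out as a treated rat that resembled an untreated one. Leaving it out therefore favours a DSS effect, and p-values without it are not added support. Each of the 2 slides held 2 rats of every group, while each group lay in 1 array column, so that column and group cannot be told apart. In bulk tissue, fewer cells of a type and less RNA per cell cannot be told apart.

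A set of junction genes was enhanced 36 days after DSS and none was diminished. Averaged over both genotypes, 11 of the 56 genes passed with a higher level after DSS and 0 with a lower one, where passing means an adjusted p of up to 0.05 (limma, Benjamini-Hochberg over all probes). Those 11 were Gjb6, Gja1, Cldn1, Jam2, Cldn5, Dsg3, Gjb2, Dsg4, Gja5, Pkp3 and Jup. They make up 19.6% of the genes, where 10.2% of all probes were higher and 6.99% were lower. In Pirc rats alone 8 genes were higher (14.3% of them, against 8.14% of all probes) and 0 lower (against 6.51%). In wildtype rats alone 3 were higher (5.36%, against 2.94%) and 0 lower (against 0.899%). When a 2-fold change was required too, the counts were 9, 8 and 2, where 5.99%, 7.46% and 2.77% of all probes met both criteria in either direction. The median difference of the 56 genes was 0.14 over both genotypes against 0.06 for all probes, so most of these genes moved little.

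The absence of diminished genes depended on the scaling, on the slide and on single rats. The share of all probes called under these alternatives is not given here, so the counts cannot be set against a background. With quantile normalization, 10 genes were higher and 4 lower over both genotypes (Jam3, Gjb1, Cldn8 and Cldn15, with differences from -0.86 to -0.32). In Pirc rats 8 were then higher and 2 lower (Jam3 and Ocln). Under this normalization the median difference of all probes over both genotypes was -0.06, against 0.06 in the main fit. With scaling to probes above background, and with the slide as a block, 8 were higher and 1, Ocln, lower in Pirc rats. Without rat 26, 14 genes were higher and 2 lower over both genotypes, and in wildtype rats 6 were higher and 2, Cldn2 and Cldn15, lower. Without rat 23, Cldn8, Ocln and Tjp1 were lower in Pirc rats after DSS. With all rats the Tjp1 probe used had -0.35 ± 0.17 there, and a further Tjp1 probe had 0.38 ± 0.22, so the probes disagree.

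**Figure D1:**
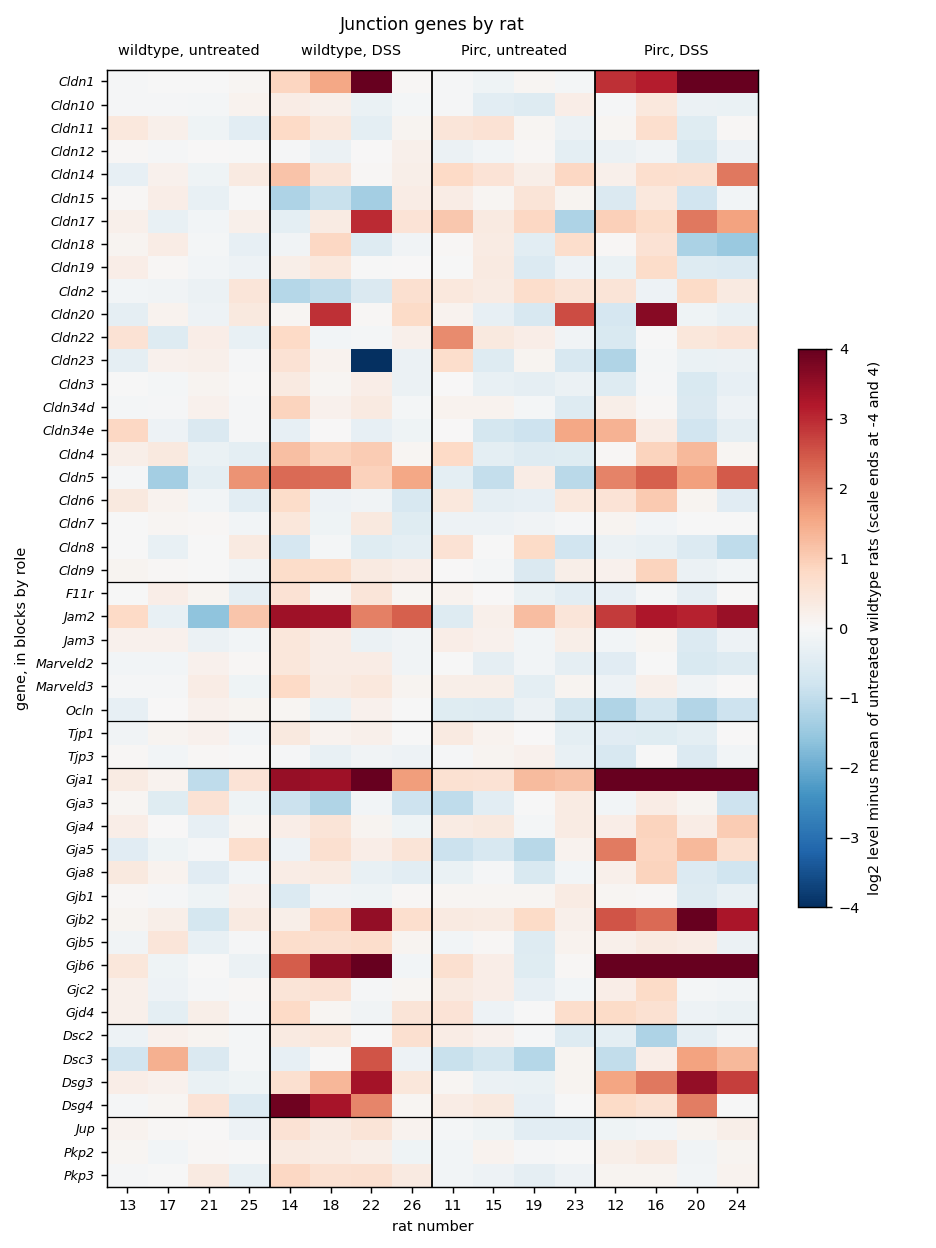
Level by rat of 48 of the 50 junction genes above background on at least 1 array; each row is a gene, each column a rat, and colour is the log2 level minus the mean of the 4 untreated wildtype rats. Red bands in the DSS columns mark Cldn1, Cldn5, Jam2, Gja1, Gjb2, Gjb6 and Dsg3, and the column of wildtype rat 26 is pale in most of them.

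Among the claudins, 2 of 25 were enhanced by DSS over both genotypes, where 10.2% of all probes were higher, so claudins showed no excess. Cldn1, a sealing claudin of stratified and many other epithelia, stood between -7.44 and -7.32 in the 4 untreated wildtype rats and between -7.57 and -7.33 in the 4 untreated Pirc rats. In DSS-treated Pirc rats it measured -4.48, -4.26, -1.54 and -3.08, all above every untreated rat. In DSS-treated wildtype rats it measured -6.55, -5.85, -3.42 and -7.34, so 3 rats lay above the untreated ones and rat 26 did not. The probe was above background in 0 of 4 untreated wildtype, 1 of 4 untreated Pirc, 2 of 4 DSS-treated wildtype and 4 of 4 DSS-treated Pirc rats. The difference was 4.12 ± 0.70 (log2, standard error) in Pirc rats, adjusted p = 0.00138, and the result over both genotypes passed too, adjusted p = 0.00105. In wildtype rats, where only 2 of 4 treated rats were above background, the fitted level was 3.05-fold higher after DSS. It did not pass, with adjusted p = 0.255.

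Cldn5, the sealing claudin of endothelium, had -7.48, -8.80, -7.85 and -5.66 in untreated wildtype rats and -7.83, -8.40, -7.15 and -8.51 in untreated Pirc rats. After DSS it had -5.20, -5.20, -6.51 and -5.89 in wildtype rats and -5.46, -5.05, -5.81 and -5.00 in Pirc rats. The probe was above background in all 8 DSS-treated rats and in 1 of 4 untreated rats of each genotype. The Pirc groups did not overlap, with a difference of 2.64 ± 0.53, adjusted p = 0.00403. In wildtype rats, where untreated rat 25 overlapped with the DSS-treated rats, the difference of 1.75 ± 0.53 did not pass, adjusted p = 0.0883.

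The claudins best known from the colon did not pass for DSS in the fit of all rats. Cldn4, a sealing claudin, had a difference of 0.76 ± 0.25 over both genotypes, adjusted p = 0.0505, and passed with the slide as a block, adjusted p = 0.0387. Cldn8, a claudin of the sodium-absorbing distal colon, had -0.54 ± 0.20, adjusted p = 0.0885. Cldn3 (-0.03 ± 0.11) and Cldn7 (0.09 ± 0.12), sealing claudins of the columnar epithelium, lay close to 0. The pore-forming claudins Cldn2 (-0.33 ± 0.23) and Cldn15 (-0.65 ± 0.23) had negative values that did not pass, adjusted p = 0.397 and 0.0644. For both of these, rat 26 decided the result in wildtype rats. Cldn15 measured -6.01, -5.68 and -6.13 in the other DSS-treated wildtype rats, -4.49 in rat 26, and between -5.07 and -4.50 in untreated wildtype rats. Without rat 26 the difference was -1.16 ± 0.25 for Cldn15, adjusted p = 0.0154, and -0.91 ± 0.23 for Cldn2, adjusted p = 0.0328.

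Of the other tight junction membrane proteins, Jam2 alone passed for DSS, among 6, where 10.2% of all probes were higher over both genotypes. Jam2 is an adhesion molecule of vascular endothelium. It measured -6.69, -7.80, -9.11 and -6.40 in untreated wildtype rats, and -4.10, -4.14, -5.48 and -5.12 after DSS. In Pirc rats it measured -8.01, -7.29, -6.28 and -7.03 without and -4.71, -4.28, -4.43 and -4.06 with DSS. Treated and untreated rats did not overlap in either genotype. The difference was 2.80 ± 0.52 in wildtype rats, adjusted p = 0.00966, and 2.78 ± 0.52 in Pirc rats, adjusted p = 0.00262. In each untreated group 2 of 4 rats were above background, against 4 of 4 in each treated group. Ocln, Marveld2 (tricellulin), Marveld3, F11r (JAM-A) and Jam3 had differences over both genotypes from -0.25 to 0.17 and did not pass. The plaque proteins Tjp1 (-0.08) and Tjp3 (-0.23) did not pass either. A further Tjp1 probe had 0.42 ± 0.16, adjusted p = 0.0843.

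Connexins held the largest fitted difference of all 56 genes, and 4 of 15 were enhanced over both genotypes, where 10.2% of all probes were higher. Gjb6, or connexin 30, is known from skin and the inner ear. In untreated rats it measured -7.50, -8.13, -7.98 and -8.19 (wildtype) and -7.30, -7.69, -8.42 and -7.90 (Pirc). After DSS it measured -2.14, -2.45, 0.19 and -0.76 in Pirc rats, all above every untreated rat. In DSS-treated wildtype rats it measured -5.54, -4.34, -0.73 and -8.05, the last in rat 26. The probe was above background in 0 of 4 untreated wildtype and 1 of 4 untreated Pirc rats, and in 3 of 4 and 4 of 4 after DSS. The difference in Pirc rats, whose untreated level rests on 1 rat above background, was 6.54 ± 1.07, adjusted p = 0.00108. The result over both genotypes passed as well, adjusted p = 0.000437. In wildtype rats the mean level was -4.67 with DSS, rat 26 at background included, and -7.95 without, all at background. This difference had adjusted p = 0.114, and it passed without rat 26, adjusted p = 0.0109.

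Gjb2, or connexin 26, is the chromosomal neighbour of Gjb6 and forms mixed channels with it. It was above background on all 16 arrays. Untreated rats measured -0.65, -0.51, -1.44 and -0.37 (wildtype) and -0.37, -0.41, 0.01 and -0.55 (Pirc). After DSS, Pirc rats measured 1.76, 1.52, 3.40 and 2.54, and wildtype rats -0.52, 0.12, 2.76 and -0.06. Every treated Pirc rat lay above every untreated rat, whereas among the wildtype rats only rat 22 stood far above. The difference was 2.63 ± 0.58 in Pirc rats, adjusted p = 0.00742, and 1.32 ± 0.58 in wildtype rats, adjusted p = 0.262.

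Gja1, or connexin 43, the connexin of smooth muscle, fibroblasts and many other cells, passed in both genotypes. It measured -6.00, -6.20, -7.33 and -5.78 in untreated wildtype rats and -2.83, -2.92, -1.33 and -4.65 after DSS. In Pirc rats it measured -5.73, -5.75, -5.06 and -5.16 without and -2.34, -2.01, -1.04 and -1.39 with DSS. No treated rat overlapped with an untreated rat of its genotype, and rat 26 had the lowest level of the treated rats. The differences were 3.39 ± 0.54 (10.5-fold) in wildtype rats, adjusted p = 0.00471, and 3.73 ± 0.54 (13.3-fold) in Pirc rats, adjusted p = 0.000516. Gja1 was above background on 15 of the 16 arrays.

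Gja5, or connexin 40 of arterial endothelium, was above background on 1 of 16 arrays, a DSS-treated Pirc rat. Its fitted difference of 1.85 passed in Pirc rats, adjusted p = 0.00235, but almost all values behind it were at background. Its size was thus not measured, and with a common floor for dim probes the difference did not pass. The 11 other connexins did not pass for DSS in the fit of all rats. Gjb1 (connexin 32), the connexin of glandular epithelium, had -0.26 ± 0.11, adjusted p = 0.156.

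Of the 4 desmosomal cadherins, 2 were enhanced over both genotypes, where 10.2% of all probes were higher. Dsg3, the desmoglein of the basal layers of stratified epithelium, measured -6.34, -6.44, -6.90 and -6.80 in untreated wildtype rats and -6.56, -6.86, -6.88 and -6.50 in untreated Pirc rats. After DSS it measured -5.03, -4.51, -3.12 and -3.86 in Pirc rats and -5.99, -5.30, -3.29 and -6.16 in wildtype rats. Every treated rat lay above every untreated rat of its genotype. The probe was above background in 2 of 4 untreated wildtype and 3 of 4 untreated Pirc rats, and in all treated rats. The difference was 2.57 ± 0.52 in Pirc rats, adjusted p = 0.00411, and 1.44 ± 0.52 in wildtype rats, adjusted p = 0.155.

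Dsg4, the desmoglein of hair follicles, measured -4.18, -4.77, -6.11 and -7.99 in DSS-treated wildtype rats, and -7.30, -7.46, -6.04 and -8.08 in DSS-treated Pirc rats. All 8 untreated rats lay between -8.63 and -7.54, and none of them was above background. The result over both genotypes passed, adjusted p = 0.0287. Neither genotype passed alone, with adjusted p = 0.0606 in wildtype rats and 0.512 in Pirc rats. After DSS, 3 of 4 wildtype and 2 of 4 Pirc rats were above background, so no fold is given. Without rat 26 the DSS difference passed in wildtype rats, adjusted p = 0.00287, whereas 4 alternatives ended the call over both genotypes. Dsc2, the desmocollin of simple epithelia, had -0.07 ± 0.17, and Dsc3 was above background on 3 of 16 arrays. Neither passed.

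In the desmosomal plaque 2 of 3 genes passed over both genotypes, where 10.2% of all probes were higher, with small differences. Pkp3, a plakophilin of epithelial desmosomes, measured 0.77, 0.81, 1.17 and 0.54 in untreated wildtype rats and 1.66, 1.42, 1.47 and 1.19 after DSS. These groups did not overlap, with a difference of 0.61 ± 0.14, adjusted p = 0.0284, which passed in 10 of the 16 fits that leave out 1 rat each. In Pirc rats the difference was 0.28 ± 0.14, adjusted p = 0.226. Jup (plakoglobin) had 0.35 ± 0.10 over both genotypes, adjusted p = 0.0248, and Pkp2 had 0.17 ± 0.10, adjusted p = 0.302.

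**Figure D2:**
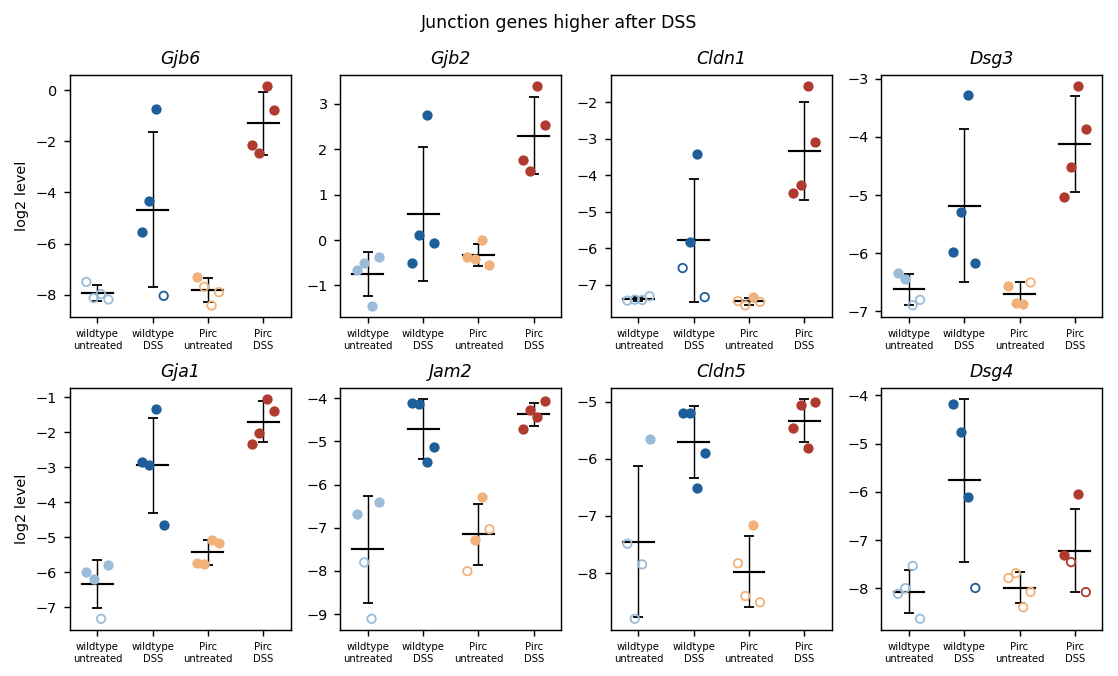
Log2 level relative to the array's 75th percentile of 8 junction genes higher after DSS, by group; each point is a rat, filled where the probe was above background, and black bars give mean and SD of 4 rats. Gja1, Jam2 and Dsg3 separate treated from untreated rats in both genotypes, while Gjb6, Gjb2, Cldn1 and Cldn5 do so in Pirc rats, and 1 wildtype rat stays at the untreated level of Gjb6.

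The treated rats did not carry these genes in the same measure. In the DSS-treated wildtype group the highest level of Gjb6, Gjb2, Cldn1, Dsg3 and Gja1 was in rat 22, and in the DSS-treated Pirc group the highest level of the same 5 genes was in rat 20. For Jam2, Cldn5 and Dsg4 the highest wildtype level was in rat 14 instead, and rat 22 had the lowest of Jam2 and Cldn5. Leaving out rat 22 left Gja1 at 2.86 ± 0.47 and Jam2 at 3.05 ± 0.55 in wildtype rats, both still passing. Leaving out rat 20 left all 8 genes enhanced in Pirc rats. On each slide taken alone, all 36 differences of these genes that passed in any comparison kept their direction. The slides hold the same rats by which these differences were chosen, so the agreement is not a separate check.

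The difference between the DSS effects of the 2 genotypes was tested for each gene, and 0 of 56 passed. The largest fitted differences were those of Gjb6, adjusted p = 0.468, and Cldn1, adjusted p = 0.39, whose probes were not well above background in untreated wildtype rats. At an unadjusted p under 0.05 there were 6 of the 56 genes and 3234 of all 30367 probes, so the genes had a share near that of all probes. A linear model without moderation also called 0 genes. At the adjusted threshold 0.0428% of all probes passed with a larger and 0% with a smaller effect in Pirc rats. That 8 genes passed in Pirc and 3 in wildtype rats therefore does not show that any gene responded differently.

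**Figure D3:**
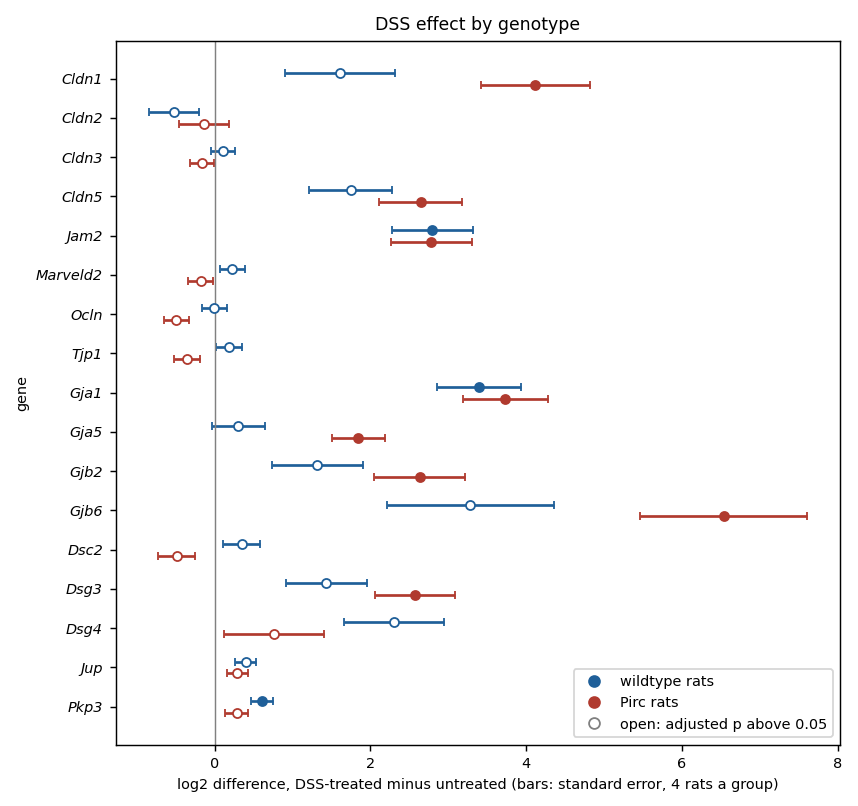
Log2 difference between DSS-treated and untreated rats (x axis) for the 17 junction genes that passed in any comparison (y axis), in wildtype (blue) and Pirc rats (red), with standard errors; filled points have an adjusted p of 0.05 or less. Jam2 and Gja1 have nearly equal differences in the genotypes, and the right-most point is Gjb6 in Pirc rats at 6.54.

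Markers of other cell types moved with these genes. Of 7 measured markers of stratified epithelium, 5 were higher after DSS over both genotypes: the keratins Krt4 (4.70), Krt14 (4.43), Krt5 (3.66), Krt15 (3.64) and Krt13, which was above background in 0 of 4 untreated wildtype and 3 of 4 untreated Pirc rats. Ivl (involucrin) was above background on no array, and Klf4, which the columnar epithelium also expresses, was lower after DSS in Pirc rats (-0.64). The summed level of this list without Klf4, in multiples of the 75th percentile, was 0.199 to 0.826 in untreated wildtype, 0.192 to 26.1 in DSS-treated wildtype, 0.185 to 0.624 in untreated Pirc and 12.9 to 84.2 in DSS-treated Pirc rats. With Klf4 the ranges were 23.3 to 33.7, 23.1 to 58.1, 19.8 to 28.4 and 27.8 to 96.4. The lowest treated value without Klf4 was in rat 26, and the highest of each genotype in rats 22 and 20, the rats that also led for Gjb6. Of 4 urothelial markers 3 were higher, Upk1b by 6.72 (above background in 2 of 4 untreated rats of each genotype), Upk1a by 1.87 and Upk3a by 0.93, while Upk2 was above background on no array. The summed urothelial level was 0.137 to 0.206 and 0.201 to 0.585 in wildtype rats without and with DSS, and 0.140 to 0.202 and 1.56 to 11.1 in Pirc rats. In Pirc rats alone 5 markers of stratified epithelium and 3 of urothelium were higher, and in wildtype rats alone 1 of each. The difference between the DSS effects passed for 0 markers of either list.

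Of 7 endothelial markers 5 were higher over both genotypes, namely Eng (1.41), Kdr (1.32), Pecam1 (1.23), Emcn and Tie1, while Cdh5 (0.18) and Tek did not pass. In Pirc rats alone 5 were higher, and in wildtype rats alone 1. Emcn and Tie1 were not well above background in any untreated rat, and Tek on no array. Their summed level was 0.395 to 0.569 and 0.545 to 0.932 in wildtype rats without and with DSS, and 0.312 to 0.600 and 0.802 to 1.08 in Pirc rats. All 4 fibroblast markers were higher, with sums of 0.316 to 0.457 and 0.756 to 4.61 in wildtype and 0.344 to 0.608 and 1.97 to 5.05 in Pirc rats, and 3 of 5 leukocyte markers were higher. Rat 22, with the lowest Jam2 and Cldn5 of its group, also had the lowest endothelial sum of it. Among DSS-treated Pirc rats, rat 12 had the lowest sum (0.802) and the lowest Jam2. Their lowest Cldn5 was in rat 20, whose sum of 0.945 was not the lowest. Smooth muscle had 1 marker higher and 1 lower of 7, with its highest sums in wildtype rats 25 (9.69) and 26 (14.6), skeletal muscle 2 higher and 1 lower of 3, and enteric neurons and glia 1 higher of 6. The part of these cell types in the junction gene differences was not tested.

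**Figure D4:**
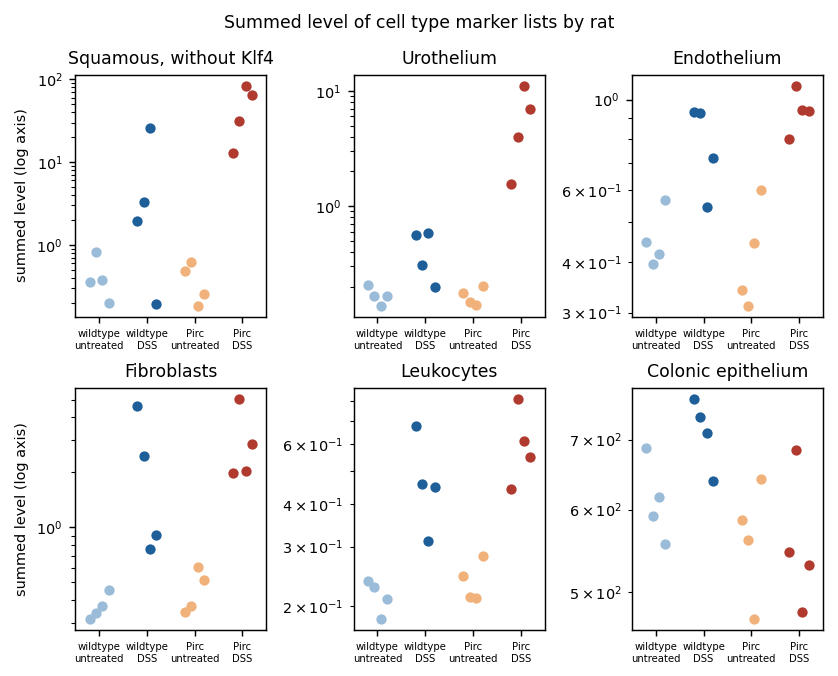
Summed level of 6 marker lists by group, in multiples of the array's 75th percentile on a log axis; each point is a rat. Stratified epithelium (without Klf4) and urothelium reach 84.2 and 11.1 in DSS-treated Pirc rats, whereas untreated rats reach at most 0.826 and 0.206, and the colonic epithelium list spans 472 to 766 over all rats.

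Between genotypes, occludin and a few other junction genes were diminished in Pirc rats, in a share near that of all probes, and none passed in untreated rats alone. Over both treatments 5 genes were diminished in Pirc rats (Ocln, Marveld2, Pkp3, Cldn3 and Jup) and 1, Cldn2, was enhanced. That is 8.93% lower and 1.79% higher, where 8.27% and 9.26% of all probes were lower and higher, so the lower share was near the background. None changed by a factor of 2, against 2.0% of all probes. After DSS, 6 genes were diminished (Ocln, Dsc2, Marveld2, Pkp3, Tjp1 and Cldn3) and 2 enhanced (Gjb6 and Cldn1) in Pirc relative to wildtype rats. Of the 56 genes 3.57% were thus higher, against 9.47% of all probes, and the 6 lower ones stand beside 8.76% of all probes that were lower, and with a 2-fold change required only Gjb6 and Cldn1 remained, against 5.47% of all probes. In untreated rats 0 genes passed by limma, as did 0% of all probes in either direction. There 1 gene and 3103 probes had an unadjusted p under 0.05, and a linear model without moderation also called 0 genes. With only the 8 DSS-treated rats in the fit, 1 gene, Ocln, passed between genotypes. The comparison of genotypes after DSS shares its Pirc rats with the DSS comparison in Pirc rats and its wildtype rats with that in wildtype rats.

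Ocln, occludin, measured 1.83, 2.18, 2.33 and 2.25 in untreated and 2.22, 1.89, 2.33 and 2.13 in DSS-treated wildtype rats. In Pirc rats it measured 1.65, 1.64, 1.91 and 1.45 without and 0.95, 1.41, 0.97 and 1.34 with DSS. Every DSS-treated Pirc rat lay below every DSS-treated wildtype rat and below every untreated Pirc rat. The Pirc difference was -0.98 ± 0.16 after DSS, adjusted p = 0.00187, and -0.73 ± 0.11 over both treatments, adjusted p = 0.00154, and both passed with each rat left out in turn. In untreated rats it was -0.49 ± 0.16, adjusted p = 0.318. The DSS difference in Pirc rats was -0.49 ± 0.16, adjusted p = 0.051, and it passed with the slide as a block, adjusted p = 0.0487.

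Marveld2, or tricellulin, which seals the corners where 3 cells meet, measured -2.33, -2.48, -2.51 and -2.93 in DSS-treated wildtype rats and -3.23, -2.79, -3.40 and -3.29 in DSS-treated Pirc rats. The groups overlapped through rat 26 at -2.93, and the difference was -0.62 ± 0.16, adjusted p = 0.0174. Cldn3 measured 7.45, 7.17, 7.36 and 6.86 in the wildtype rats and at most 7.05 in the Pirc rats, again overlapping in rat 26, with a difference of -0.49 ± 0.15, adjusted p = 0.0404. Without rat 26 the differences were -0.74 ± 0.16 for Marveld2 and -0.60 ± 0.15 for Cldn3. Rat 26 had the lowest level of both genes in its group, so leaving it out widens both differences. The Cldn3 result passed in only 5 of the 16 fits that leave out 1 rat each.

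Dsc2 measured 1.46, 1.54, 1.10 and 1.75 in DSS-treated wildtype rats and 0.74, -0.11, 0.76 and 1.02 in DSS-treated Pirc rats. The groups did not overlap, and the difference was -0.86 ± 0.24, adjusted p = 0.0211. Pkp3 measured 1.66, 1.42, 1.47 and 1.19 against 0.92, 0.93, 0.72 and 0.96, also without overlap, with a difference of -0.55 ± 0.14, adjusted p = 0.017. Tjp1, or ZO-1, measured 0.88, 0.62, 0.68 and 0.47 against 0.02, -0.01, 0.09 and 0.48, with a difference of -0.51 ± 0.17, adjusted p = 0.0471. A further Tjp1 probe gave -0.10 ± 0.22, adjusted p = 0.789, so the probes of this gene disagree. The Tjp1 call was lost with the slide as a block, adjusted p = 0.0503, with the array row as a block, with only the compared groups and with its probes averaged. Jup passed over both treatments at -0.33 ± 0.10, adjusted p = 0.0337, and in 7 of the 16 fits that leave out 1 rat each.

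Cldn2, the pore-forming claudin that passes sodium and water, was the gene enhanced in Pirc rats over both treatments. It measured -0.21, -0.22, -0.32 and 0.37 in untreated and -1.24, -1.09, -0.69 and 0.53 in DSS-treated wildtype rats. In Pirc rats it measured 0.32, 0.25, 0.60 and 0.42 without and 0.41, -0.29, 0.66 and 0.27 with DSS. The difference of 0.69 ± 0.23, adjusted p = 0.0497, lay at the threshold and passed in 3 of the 16 fits that leave out 1 rat. A further Cldn2 probe gave 0.67 ± 0.19, adjusted p = 0.0223. Wildtype rats 25 and 26 were the highest of their groups. After DSS the difference was 0.88 ± 0.32, adjusted p = 0.0709, with all rats and 1.27 ± 0.23, adjusted p = 0.00441, without rat 26. Leaving out the highest wildtype rat widens this difference, so the p-value without rat 26 is not added support. The further probe passed with all rats at 0.96 ± 0.26, adjusted p = 0.0207.

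Gjb6 and Cldn1 were higher in Pirc than in wildtype rats after DSS by 3.38 ± 1.07, adjusted p = 0.0415, and 2.45 ± 0.70, adjusted p = 0.0264, although the groups overlapped in rat 22. Without rat 22 the differences were 4.69 ± 0.74 and 3.24 ± 0.54, and Dsg3, Gja1 and Gjb2 passed as well, so that 5 genes were higher and 4 lower. Without rat 20, by contrast, 0 were higher and 2 lower. Rats 22 and 20 had the highest levels of Gjb6, Cldn1, Dsg3, Gja1 and Gjb2 in their groups. Leaving out rat 22 thus widens these genotype differences and leaving out rat 20 narrows them, so calls without rat 22 are not added support. The share of all probes called in these fits is not given here. F11r, or JAM-A, had -0.51 ± 0.18 after DSS, adjusted p = 0.0573, and passed with the slide as a block, adjusted p = 0.0482. Tjp3, Cldn4, Cldn7, Cldn8, Cldn15, Cldn23, Gjb1 and Pkp2 passed in none of the 7 comparisons in the fit of all rats.

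**Figure D5:**
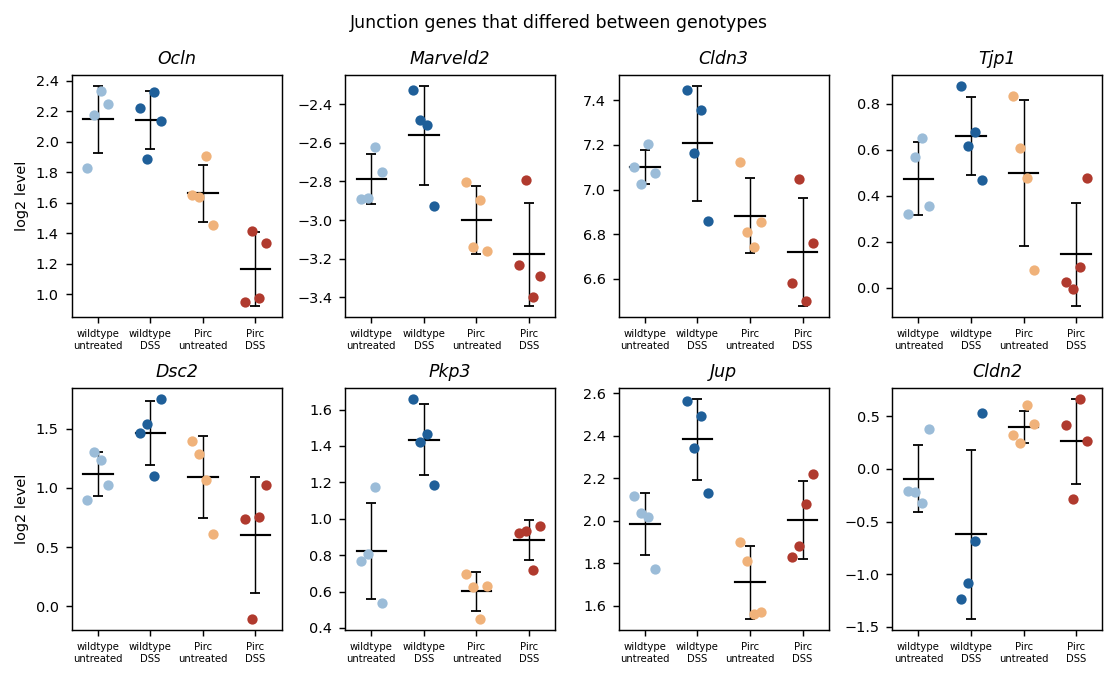
Log2 level relative to the array's 75th percentile of 8 junction genes that differed between genotypes, by group; each point is a rat and black bars give mean and SD of 4 rats. Ocln of DSS-treated Pirc rats lies between 0.95 and 1.41, below all other rats, and Dsc2 and Pkp3 of these rats lie below all DSS-treated wildtype rats.

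The median difference of all probes in this comparison was -0.11, and relative to it Ocln stood at -0.86, Dsc2 at -0.75, Marveld2 at -0.51, Pkp3 at -0.44, Tjp1 at -0.40 and Cldn3 at -0.38. Markers of the columnar epithelium also differed: 6 of 11 were lower in Pirc than in wildtype rats after DSS, and 0 higher. These were Slc26a3 (-2.25), the chloride exchanger of surface cells, Cdhr5 (-1.33), Vil1 (-0.62), Cdh1 (-0.61), Krt8 (-0.57) and Epcam (-0.56), while Krt18, Krt20, Lgals4, Car1 and Cdx2 did not pass. The summed level of the list was 639 to 766 in DSS-treated wildtype and 479 to 684 in DSS-treated Pirc rats, and 556 to 687 and 472 to 642 in the untreated rats. Its part in the junction gene differences was not tested.

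Other genes of the junction pathways, 43 measured of 53 listed, were set beside these. Over both genotypes 4 were higher and 4 lower after DSS, where 10.2% and 6.99% of all probes were higher and lower. The higher ones were Ppl (2.85 ± 0.34), the periplakin of the cornified envelope and desmosome, Cgnl1 (1.39), a relative of cingulin above background in 1 of 4 untreated rats of each genotype, Nectin4 (1.01) and Cdh17 (0.65), the liver-intestine cadherin. The lower ones were Ildr1 (-0.52), a protein of tricellular contacts, Magi3 (-0.45), Llgl2 (-0.39) and Prkci (-0.38). In Pirc rats 4 were higher and 3 lower, against 8.14% and 6.51% of all probes, and in wildtype rats 0 passed, against 2.94% and 0.899%. Between genotypes after DSS, 16 were lower and 3 higher in Pirc rats, against 8.76% and 9.47% of all probes. The lower ones included E-cadherin (Cdh1, -0.61), alpha-catenin (Ctnna1, -0.48), Nectin3 (-0.98), vinculin (Vcl, -0.75), the scaffolds Magi1 (-0.89) and Magi3 (-0.75), the polarity genes Pals1 (-0.73), Prkcz (-0.66) and Dlg1 (-0.60), and integrin beta 4 (Itgb4, -1.02) of hemidesmosomes. Nectin4, Cgnl1 and Ppl were the 3 higher ones. In untreated rats and for the difference between DSS effects 0 of the 43 passed.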

How the data were processed

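The authors hybridised RNA of 16 rats to 1-colour Agilent arrays and, per the file headers, extracted spot signals with Agilent Feature Extraction 10.7.3.1. The deposited intensity values are background-subtracted and detrended within an array but not normalized between arrays. Here each log2 intensity was set relative to its array's 75th percentile and the unflagged spots of a probe were averaged. Control spots were left out. Group means were fitted with limma 3.58.1 in R 4.3.3 over all 16 arrays and 30367 probes, and p-values were adjusted by the Benjamini-Hochberg method over all probes. A gene passed at an adjusted p of up to 0.05. The script was tested on simulated data. The 7 comparisons were DSS against none and Pirc against wildtype (each over both levels of the other factor and within each level) and the difference between the DSS effects.

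Probes were named through RefSeq accessions (18006 of 30367 probes). The genes named are every member that passed in any comparison and a list of members known from the colonic or general epithelium. Jam3, Marveld3 and Dsc3 fall outside that rule and were named after their values were seen. A few members are counted but not reported by name here. Members, marker lists and pathway lists were chosen with earlier results of these data known. The labels do not say that replicates were independent beyond being separate rats. Precision is limited by the 4 arrays in a group. Alternatives were other background corrections, scalings, filters, blocks, moderation, thresholds and leaving out each rat.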

Additional observations from a re-analysis of the deposited data

Results flagged for a closer look

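Single rats stood apart from the other 3 of their group, by a Dixon test, in 6 of 112 groups checked (28 genes in 4 groups), where chance gives about 1 in 20, or 5.6. Cldn2 measured 0.37 in untreated wildtype rat 25, above the others. Cldn23 measured -1.25 in DSS-treated wildtype rat 22 and 2.26 in DSS-treated Pirc rat 12, below the others in both cases. Cldn4 measured 4.82 in untreated Pirc rat 11, above the others. Gjb1 measured -1.78 in untreated Pirc rat 23, above the others. Pkp3 measured 0.72 in DSS-treated Pirc rat 20, below the others.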

How the results depend on the processing

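Of the 36 differences of single genes that passed, 0 reversed under any alternative, 21 passed in every alternative other than leaving out a rat, 22 with every rat left out, and 19 in all. With an adjusted p of up to 0.10, the comparison of wildtype rats with and without DSS had 5 genes, that of genotypes over both treatments 10 and that of genotypes after DSS 13. The share of all probes passing is not given for this rule or for the refits below. No excess of junction genes can be read from such counts. With a 2-fold change required, 0 passed for Pirc over both treatments and 2 for Pirc after DSS. With only the compared groups in the fit, 1 passed for DSS in wildtype rats and 1 for Pirc after DSS. Leaving out 1 rat gave 9 to 16 genes for DSS over both genotypes, 8 to 11 in Pirc rats, 2 to 8 in wildtype rats (8 without rat 26), 2 to 8 between genotypes over both treatments (2 without untreated wildtype rat 21, 8 without rat 22) and 2 to 11 between genotypes after DSS (2 without rat 14 or rat 20, 11 without rat 16). Untreated Pirc rats and the difference between DSS effects gave 0 throughout. The calls of Tjp1, Cldn2, Cldn3 and of Gjb6 between genotypes passed in 3 to 5 of 16 such fits. Dsg4 and Gja5, mostly near background, lost their call over both genotypes with a common floor, as did Gja5 in Pirc rats. The cause was not tested. No paired analysis was possible because the groups share no replicate numbers. Each set of slide and array row held 1 rat of every group, and as a block, an alternative chosen after seeing the data, it gave 12 genes for DSS over both genotypes (all higher), 8 in Pirc and 4 in wildtype rats, 1 higher and 3 lower between genotypes over both treatments, and 4 higher and 4 lower after DSS. Tjp1, Jup and Cldn3 lost their genotype calls under it.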
